A study of Mus musculus with 18 samples.

Results

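Chromatin accessibility was followed at the colony-stimulating factor genes of mouse macrophages, Csf1, Csf2 and Csf3, and at the genes of their receptors, Csf1r, Csf2ra, Csf2rb, Csf2rb2 and Csf3r. Regions of the deposited table were taken where their midpoint lay within the body of one of these 8 genes, or where it was the nearest protein-coding gene within 50 kb. This gave 39 of 53796 regions, at 7 of the 8 genes: 6 regions at Csf1, 5 at Csf2, 10 at Csf1r, 6 at Csf2ra, 4 at Csf2rb, 3 at Csf2rb2 and 5 at Csf3r. Csf3 had none. Nearness to a gene is no proof that a region acts on it.

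The cells were macrophages grown from the bone marrow of wildtype C57BL/6 mice aged 6 to 12 weeks. All of them, the untreated ones included, were grown in 20 ng/mL M-CSF, which is the protein made from Csf1, and were replated on day 7. Each of the 9 groups received a first treatment for 4 hours and a second for 4 hours, and is named by the initials of the pair: M for medium, C for CpG (100 nM), L for LPS (1 ng/mL), P for polyI:C (1 µg/mL) and T for TNF (10 ng/mL). MM received medium throughout. MC, ML, MP and MT received medium and then 1 stimulus, CL and PL received CpG or polyI:C and then LPS, and CT and PT received CpG or polyI:C and then TNF. No group received CpG or polyI:C first and medium second. What a first stimulus does alone over both periods and what it changes in the response to the second cannot be told apart. Comparisons of primed cells below carry this limit. LPS is a bacterial ligand of TLR4, CpG DNA of TLR9, polyI:C a double-stranded RNA mimic sensed by TLR3, and TNF a cytokine. Each group held 2 ATAC-seq libraries, in which a transposase cuts and tags open DNA. The labels do not say whether the libraries of a group came from separate animals or cultures, and the p-values therefore reflect library-to-library spread alone, which may be technical.

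Colony-stimulating factors are secreted proteins that drive the survival, growth and maturation of myeloid cells. Csf1 (M-CSF) acts through the receptor tyrosine kinase Csf1r, which defines the macrophage lineage and is known to be controlled by its promoter and by an enhancer inside the gene. Csf2 (GM-CSF) acts through a specific alpha chain, Csf2ra, with the common beta chain Csf2rb, which the IL-3 and IL-5 receptors share. Csf2rb2 is a mouse duplicate of the beta chain that serves IL-3. Csf3 (G-CSF), the main growth factor of neutrophils, acts through Csf3r. Macrophages that meet microbial products are known to make Csf1, Csf2 and Csf3 themselves.

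The libraries held 3141641 to 5986835 reads in regions, with a median of 61 reads per library in the 39 regions and a range of 6 to 492. Their median level of 3.53 log2 CPM (CPM being read counts scaled to the size of each library) was near that of all regions, 3.67. Macrophage genes had an accessible gene end for 10 of 10 markers, Csf1r among them, with a summed level of 283 CPM in PT to 374 in ML. Markers of B cells and of stroma and endothelium had none (0 of 4 and 0 of 6), T and NK cells 2 of 6 (Cd3d and Klrb1c, 28.8 CPM in PT to 52.4 in MC), neutrophils 1 of 6 (S100a8, 9.02 in MP to 25.3 in CT) and dendritic cells 1 of 4 (Flt3, 5.16 in CT to 9.44 in MM). The part of these shifts in the results was not tested. In bulk libraries, more cells with an open region and more open copies per cell cannot be told apart. The 2 MP libraries did not differ detectably beyond sampling noise (chi-square per region 1.003, p = 0.285) and were counted as 1 sample. Every other pair did differ and was counted as 2 samples, but ML and MM differed only slightly, at 1.069 and 1.078 per region. The PT libraries stood furthest apart: their correlation across regions was 0.919, against 0.958 to 0.973 in the other groups, and 31 of the 39 regions were lower in PT replicate 2 than in replicate 1, with a median gap of 0.45 where all regions had 0.00.

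Differences below are in log2 CPM with their standard error, from limma fitted to all 53796 regions, and a region was called where its Benjamini-Hochberg p-value over the whole table was under 0.05. Of 124 calls at these regions over 18 comparisons, 48 were kept when each library of the compared groups was left out in turn and 76 were lost without at least 1 of them. A group reduced to 1 library is assumed to vary like the others. For the regions described below, libraries are named where their loss ended a call.

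The promoters that lay wholly or in part under a region of the table are shown first. They are the sequences at the start sites whose accessibility is described below. Each window runs from 250 bases before to 50 after the start, from RefSeq on GRCm38.p6. Letters in capitals match motifs searched on both strands: a loose NF-kB motif and the stricter GGAANNTCC (NF-kB, whose matches can overlap), TGANTCA (AP-1), the interferon-stimulated response element (ISRE), GGAAGT (PU.1) and TTGCNNAA (C/EBP). Among 32851 promoter windows of this length, the loose NF-kB motif occurred in 50.8%, GGAANNTCC in 4.26%, TGANTCA in 7.81%, the ISRE in 3.44%, GGAAGT in 23.8% and TTGCNNAA in 10.8%. A match is a description and no evidence of binding. The windows of Csf1 (chr3:107760420-107760719, minus strand), Csf3r (chr4:126024409-126024708, plus strand), Csf2rb2 (chr15:78305672-78305971, minus strand) and Csf2ra (chr19:61228369-61228668, minus strand) read as follows.
Csf1: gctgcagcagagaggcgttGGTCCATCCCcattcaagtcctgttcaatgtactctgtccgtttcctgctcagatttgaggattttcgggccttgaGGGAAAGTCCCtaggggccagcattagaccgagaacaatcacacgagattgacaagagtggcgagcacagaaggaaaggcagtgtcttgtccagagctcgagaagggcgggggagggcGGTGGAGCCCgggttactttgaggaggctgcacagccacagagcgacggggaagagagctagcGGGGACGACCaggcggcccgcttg
Csf3r: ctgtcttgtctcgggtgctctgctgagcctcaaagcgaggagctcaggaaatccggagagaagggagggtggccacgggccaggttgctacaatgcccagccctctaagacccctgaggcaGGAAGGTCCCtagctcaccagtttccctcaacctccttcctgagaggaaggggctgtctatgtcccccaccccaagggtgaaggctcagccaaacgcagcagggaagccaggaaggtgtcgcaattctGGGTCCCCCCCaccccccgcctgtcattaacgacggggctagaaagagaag
Csf2rb2: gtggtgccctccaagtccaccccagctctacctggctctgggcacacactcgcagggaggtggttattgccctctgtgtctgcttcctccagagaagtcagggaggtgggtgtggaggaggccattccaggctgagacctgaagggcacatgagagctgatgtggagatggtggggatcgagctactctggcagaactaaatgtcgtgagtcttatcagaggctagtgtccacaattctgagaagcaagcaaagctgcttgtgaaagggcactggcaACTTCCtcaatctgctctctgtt
Csf2ra: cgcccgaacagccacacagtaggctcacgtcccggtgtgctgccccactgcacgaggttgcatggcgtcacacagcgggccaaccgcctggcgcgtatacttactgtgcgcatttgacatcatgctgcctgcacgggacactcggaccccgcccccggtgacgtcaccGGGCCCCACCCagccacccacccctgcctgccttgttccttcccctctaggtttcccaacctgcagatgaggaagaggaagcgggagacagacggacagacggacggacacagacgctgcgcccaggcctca
The Csf1 window held GGAANNTCC at position -154 from the start, inside a run that the loose motif matched on both strands, and 3 further matches of the loose motif. The Csf1 region covers only part of this window. The run at -154 and the loose match at -231 lay outside the region. The Csf3r window held GGAANNTCC at -129. The Csf2ra and Csf2rb2 windows held no GGAANNTCC, and none of the 4 held TGANTCA or the ISRE.

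Accessibility at these genes moved in both directions, at start sites and at distal regions. Of the 39 regions, 25 were called in at least 1 of 8 comparisons of a stimulus or a priming treatment with its control, against 62.4% of all regions, and 14 in none. These were 5 of the 6 regions within 1 kb of a start or gene end and 20 of the 33 others. With a single stimulus, 11 regions rose with at least 1 of the 4, 3 fell with at least 1, none did both and 25 were not called. The shares of all regions for these counts, and for the split by distance to a start or gene end, were not taken. The counts therefore cannot be set against the whole table, and shares for each stimulus are given below. The 3 that rose with all 4 stimuli were inside Csf2rb, inside Csf2rb2 and 20.5 kb before Csf3r, and 3.94% of all regions did so. The Csf3r call with TNF was lost without each of the MM and MT libraries. The CpG calls inside Csf2rb and Csf2rb2 were lost without MC replicate 2 and with quantile normalization. The one inside Csf2rb2 was also lost without either MM library and with voom. The range of the 9 group means had a median of 0.93 over the 39 regions and 0.83 over all regions.

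**Figure D1:**
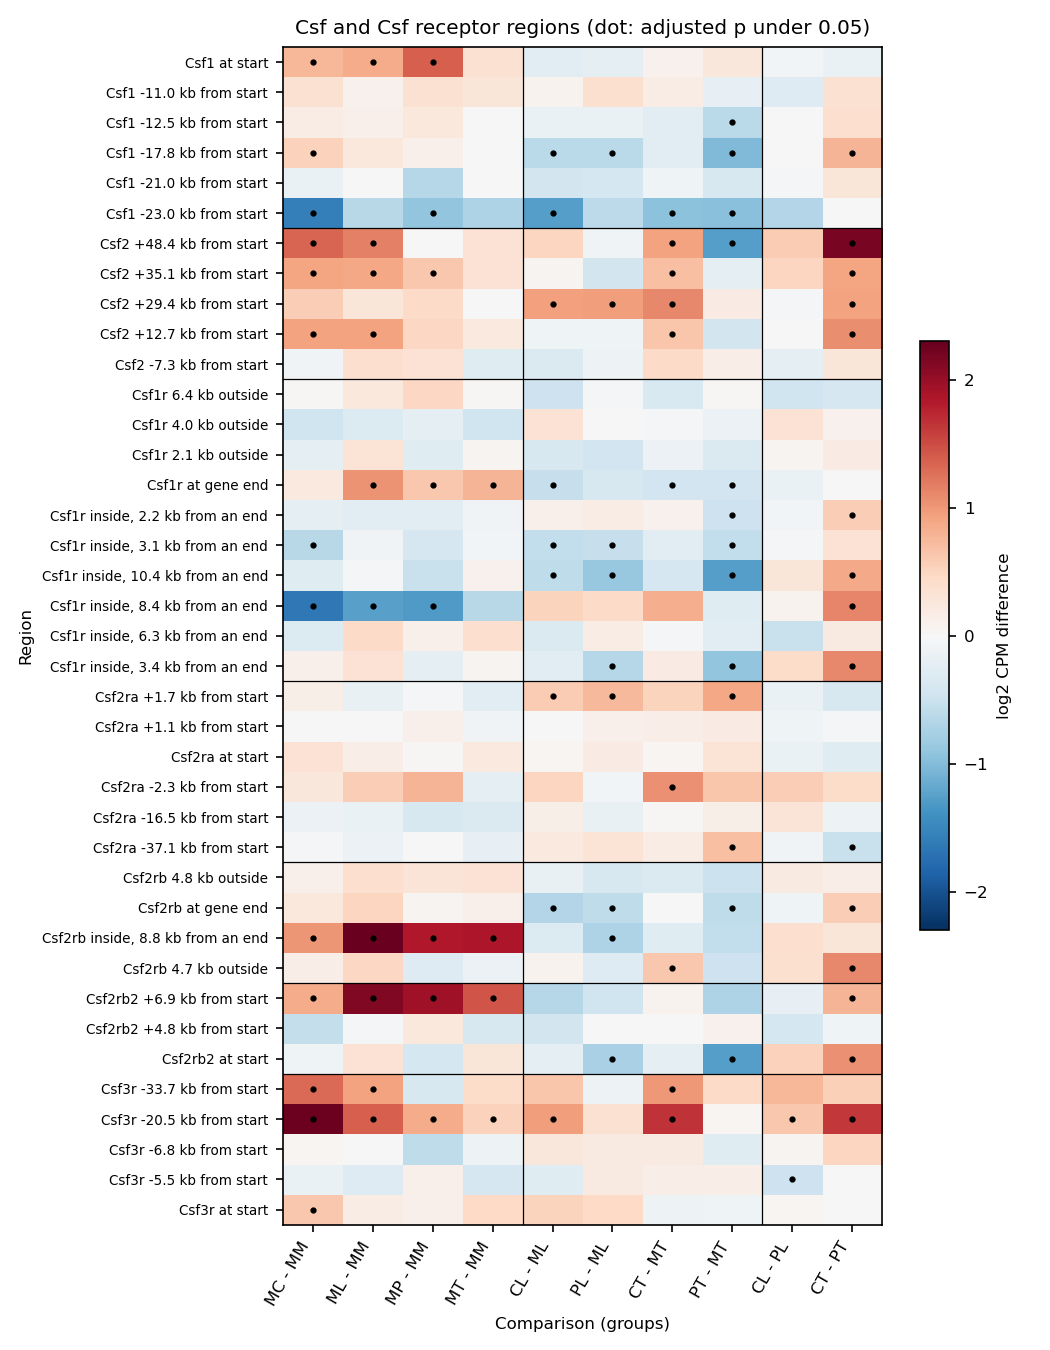
Log2 CPM difference at each of the 39 regions (rows, by gene and distance) in 10 comparisons (columns, first group minus second), with a dot where the adjusted p is under 0.05. Dotted red cells gather in the single-stimulus columns at Csf2, inside Csf2rb and Csf2rb2 and before Csf3r, dotted blue cells in the PT - MT column at Csf1 and Csf1r, and the Csf2ra rows hold no dot in the single-stimulus columns.

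CpG alone called 13 of 39 regions (33.3%), 10 higher and 3 lower, against 26.0% of all regions (17.2% higher and 8.79% lower). LPS alone called 10 (9 higher, 1 lower) against 24.5% (15.0% higher and 9.55% lower). PolyI:C alone called 8 (6 higher, 2 lower) against 22.5% (14.3% and 8.28%). TNF alone called 4, all higher, against 6.36% (5.79% and 0.573%). The shares called in either direction lay near or a little above the background. The median difference over the 39 regions was 0.11 with CpG, 0.24 with LPS, 0.11 with polyI:C and 0.03 with TNF, where all regions had 0.01, 0.00, -0.01 and -0.01. The 4 comparisons share the MM libraries.

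**Figure D2:**
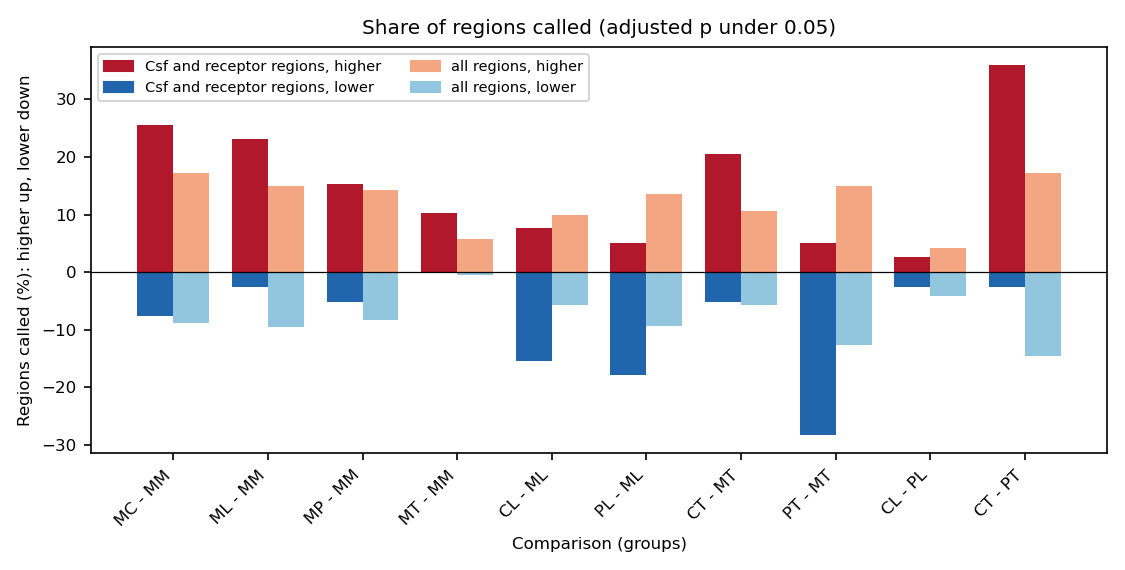
Share of regions called, in percent, higher above and lower below the line, for the 39 regions (dark bars) and all regions (pale bars) in 10 comparisons. The dark bars reach furthest above for CT - PT, with 14 of 39 regions higher, and furthest below for PT - MT, with 11 of 39 lower.

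The region at the Csf1 start (chr3:107760103-107760604, 0.116 kb from the start, covering 185 bases of the promoter printed above) opened with the 3 Toll-like receptor ligands. It read 4.36 and 4.37 log2 CPM in MM, 4.96 and 5.28 in MC, 5.24 and 5.19 in ML, 5.84 and 5.65 in MP and 4.71 and 4.72 in MT. All stimulated libraries lay above both MM libraries, and the MP libraries above all others. It rose by 0.76 ± 0.15 with CpG (adjusted p = 1.63e-04, limma), 0.85 ± 0.15 with LPS (4.56e-05) and 1.38 ± 0.18 with polyI:C (4.13e-07). The difference with TNF was 0.35 (adjusted p = 0.192, limma). PolyI:C exceeded TNF by 1.03 ± 0.18 (1.14e-04), and it exceeded CpG by 0.62 (0.0183), a call lost without MC replicate 1 (0.201). After 2 stimuli the region read 4.95 and 4.94 in CL, 5.02 and 4.99 in PL, 4.88 and 4.77 in CT and 5.18 and 4.76 in PT. None of these groups was called against LPS or TNF alone.

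Upstream of Csf1 the regions went other ways. The farthest, 23.0 kb before the start (chr3:107783231-107783732), read 3.83 and 4.21 in MM, 2.68 and 2.23 in MC, 3.54 and 3.23 in ML, 3.10 and 3.14 in MP and 3.29 and 3.34 in MT. It read 2.15 and 2.07 in CL, 3.18 and 2.39 in PL, 2.28 and 2.47 in CT and 2.54 and 2.18 in PT. Every stimulated library lay below both MM libraries, and MC, CL, CT and PT held no library above 2.68. It fell with CpG (-1.57 ± 0.26, adjusted p = 1.60e-05, limma) and with CpG before LPS relative to LPS alone (-1.27 ± 0.26, 9.03e-04), and both calls were kept without each library. The falls with CpG or polyI:C before TNF (-0.94 and -0.96) were lost without either MT library or CT replicate 1 in the first case and without PT replicate 2 in the second (highest adjusted p 0.0878 and 0.0672, limma). The fall with polyI:C alone (-0.90, 0.0391) was lost without MM replicate 2 (0.214).

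The region 17.8 kb before the Csf1 start (chr3:107777969-107778470) read 4.20 and 4.22 in MT, 3.93 and 4.01 in CT and 3.46 and 2.92 in PT. Both PT libraries lay below all CT and MT libraries. It fell with polyI:C before TNF by 1.02 ± 0.18 on the log2 scale (adjusted p = 7.61e-05, limma), and without PT replicate 2 the difference was -0.75 and still called. It stood 0.78 higher in CT than in PT, a call lost without PT replicate 2 (0.50, adjusted p = 0.0760). The smaller rise with CpG alone (0.53) and falls with CpG or polyI:C before LPS (-0.61 and -0.62) were called with all libraries, and were lost without each of the 4 libraries compared for the rise and the CpG fall and without either ML library or PL replicate 2 for the polyI:C fall. The other 3 Csf1 regions, all upstream, held 1 call in the comparisons with medium or a single stimulus, a fall 12.5 kb upstream with polyI:C before TNF (-0.63, adjusted p = 0.0323, limma). It was lost without either MT library or PT replicate 2 (-0.38 without the last, highest adjusted p 0.301), without a variance trend, in a fit of PT and MT only and with voom.

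Csf2 had no accessible region in its body. The nearest lay 7.3 kb before the start and was not called in any comparison, and 4 lay 12.7 to 48.4 kb past the start. Of these, 3 opened with CpG and with LPS. The farthest (chr11:54201207-54201708) read 2.32 and 2.41 in MM, 3.68 and 3.75 in MC, 3.67 and 3.36 in ML, 2.68 and 2.02 in MP and 2.73 and 2.67 in MT. The MC and ML libraries lay above all libraries of MM, MP and MT, while the MP libraries spanned those of MM. It rose by 1.35 ± 0.23 with CpG (adjusted p = 1.80e-05, limma) and by 1.15 ± 0.23 with LPS (2.40e-04), against -0.01 with polyI:C. The test of CpG against polyI:C gave 1.36 ± 0.28 (7.93e-04), and CpG against TNF gave 1.01 ± 0.23 (1.80e-03).

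The same Csf2 region carried the widest gap between the priming treatments. It read 3.97 and 4.05 in CL, 3.62 and 3.24 in PL, 3.55 and 3.68 in CT and 1.59 and 1.28 in PT. The PT libraries were the lowest of all 18 and below MM, and the CL libraries the highest. CT exceeded PT by 2.18 ± 0.23 (adjusted p = 1.21e-08, limma), and PT fell by 1.27 on that scale relative to MT (8.72e-05), both kept without each library. CT exceeded MT by 0.92 ± 0.23 (4.11e-03), a call lost without CT replicate 2 (0.0565). Before LPS, CpG and polyI:C gave no called difference from LPS alone at this region.

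The Csf2 region 35.1 kb past the start (chr11:54214566-54215067) read 4.03 and 4.18 in MM, 4.77 and 5.27 in MC, 5.15 and 4.84 in ML, 5.04 and 5.19 in CT and 4.50 and 3.94 in PT. The MC and ML libraries lay above MM, and both CT libraries above PT. It rose by 0.91 ± 0.18 with CpG and 0.89 ± 0.18 with LPS (adjusted p = 1.88e-04 and 3.78e-04, limma) and stood 0.90 ± 0.18 higher in CT than in PT (3.71e-04). A rise with polyI:C of 0.63 was lost without either MM library or MP replicate 1, and with quantile normalization. The region 12.7 kb past the start, named after its values were seen (chr11:54236956-54237457), rose by 0.93 ± 0.22 with CpG and 0.92 ± 0.22 with LPS. The group means of these 3 downstream regions moved together, with r of 0.83 to 0.93 over 9 groups. The group means share libraries and are not independent.

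The downstream region at 29.4 kb (chr11:54220276-54220777) differed in order: it read 1.86 and 1.95 in MT and 2.91 and 3.13 in CT, and 2.70 and 1.72 in ML against 3.09 and 3.20 in CL and 3.28 and 3.06 in PL. Both primed LPS groups lay above the ML libraries, which stood far apart from each other. Its higher values in CL and PL than ML (0.94 and 0.96) were lost without ML replicate 2 (0.45 and 0.47) and without either library of the primed group, and stood at 1.43 and 1.45 without ML replicate 1. Its rise with CpG before TNF (1.11 ± 0.29, adjusted p = 6.89e-03, limma) was lost without MT replicate 1 or CT replicate 2 (highest adjusted p 0.0867). At Csf3, the nearest region was 2.746 kb from the gene (chr11:98706127-98706628, mean 2.60 log2 CPM). It was assigned to the neighbouring gene Med24, so nothing is given for Csf3.

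**Figure D3:**
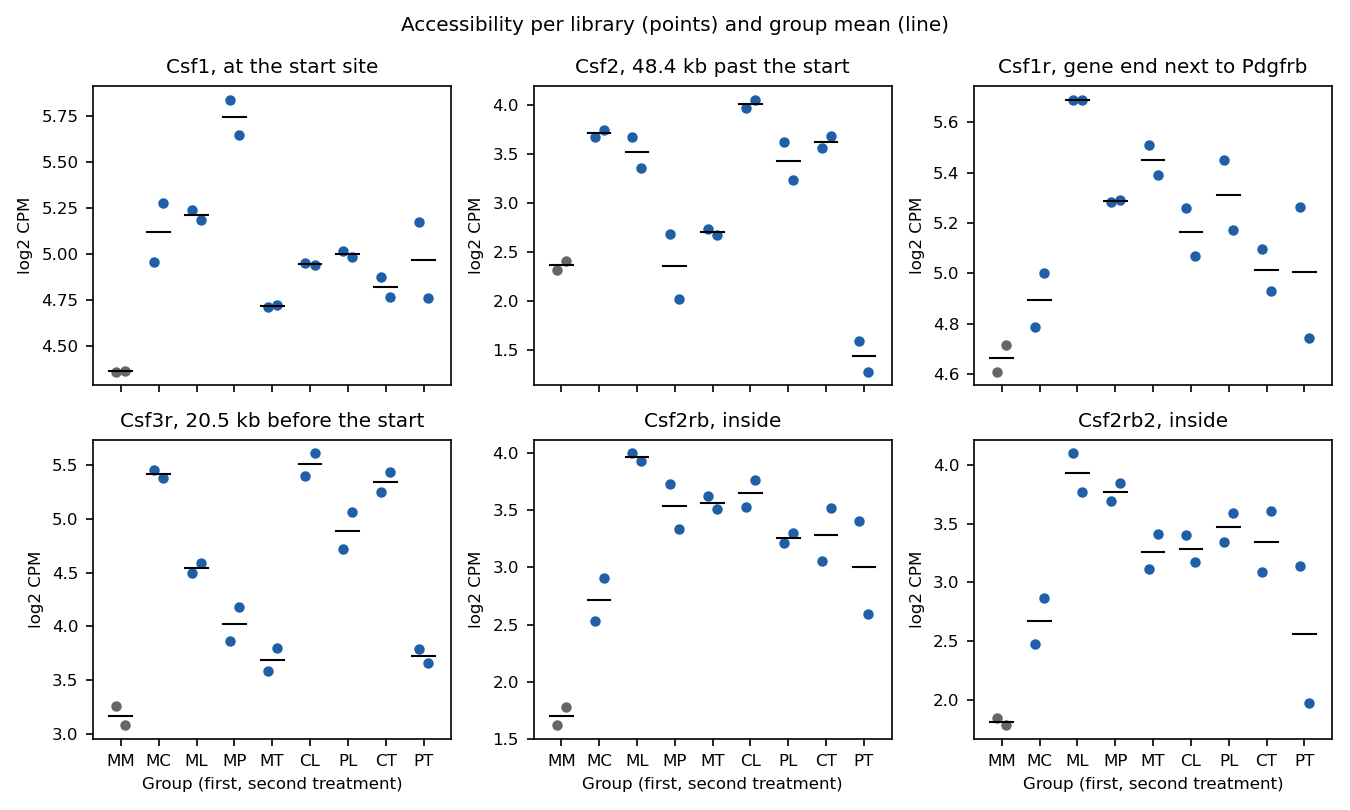
Log2 CPM of each library (points) and group mean (lines) in the 9 groups at 6 regions, with MM in grey. MC, CL and CT are high at the Csf2 and Csf3r regions, PT is lowest at the Csf2 region, the Csf1 start peaks in MP, and the Csf2rb and Csf2rb2 regions lie lowest in MM.

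Csf1r held 10 regions, 7 of them in the gene. Csf1r and Pdgfrb are known as head-to-tail neighbours, so the gene end next to Pdgfrb is the one from which Csf1r is read. The region there (chr18:61105364-61105865) read 4.61 and 4.72 in MM, 4.79 and 5.00 in MC, 5.69 and 5.69 in ML, 5.28 and 5.29 in MP and 5.51 and 5.39 in MT. The ML, MP and MT libraries lay above those of MM and MC. It rose by 1.03 ± 0.15 with LPS (adjusted p = 3.30e-06, limma) and 0.79 ± 0.15 with TNF (5.28e-04). The rise with polyI:C (0.63 ± 0.19, 0.0126) was lost without MM replicate 1 (0.0701), and CpG gave 0.23 (0.291). CpG stood 0.79 below LPS (-0.79 ± 0.15, 1.40e-03), a call lost without MC replicate 1 (0.0737).

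Under 2 stimuli the Csf1r gene end read 5.26 and 5.07 in CL, 5.45 and 5.17 in PL, 5.10 and 4.93 in CT and 5.26 and 4.74 in PT. All 4 groups lay below their singly stimulated control, ML or MT, in every library. The differences were called for CL (-0.52, adjusted p = 0.0163, limma), CT (-0.44, 0.0450) and PT (-0.45, 0.0270). Each was lost without some libraries: either ML library or CL replicate 2 for CL, each of the 4 for CT, and either MT library or PT replicate 2 for PT, where the difference was -0.19 (0.459) without PT replicate 2 and -0.70 without PT replicate 1.

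Of the 6 regions further inside Csf1r, none was called higher with a stimulus or a priming treatment against its control. The most accessible of the 10 (chr18:61108396-61108897), 3.1 kb inside and named after its values were seen, read 6.21 and 6.36 in MM and 5.56 and 5.73 in MC. Both MC libraries lay below both MM libraries, and the region fell with CpG alone (-0.64 ± 0.14, adjusted p = 6.88e-04, limma). It was also lower in CL and PL than in ML and in PT than in MT, by 0.53 to 0.57 in size. The CL call was lost without ML replicate 1 or CL replicate 1, the PL call without ML replicate 1 or PL replicate 1, and the PT call without MT replicate 1 or PT replicate 2, with -0.26 in place of -0.57 without PT replicate 2 and -0.87 without PT replicate 1. Which region holds the known enhancer was not determined.

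The intragenic Csf1r region nearest the middle of the gene (chr18:61120475-61120976) read 4.66 and 4.67 in ML, 3.72 and 3.88 in PL, 4.77 and 4.87 in MT, 4.53 and 4.34 in CT and 4.04 and 3.08 in PT. The region averaged 4.71 in MM and 4.20 in MP, a difference that was not called. PL lay below ML and PT below MT in every library. It fell with polyI:C before TNF (-1.26 ± 0.20, adjusted p = 1.94e-05, limma) and before LPS (-0.86 ± 0.20, 2.03e-03), both kept without each library, although the first was -0.78 without PT replicate 2. The difference of CT from PT (0.88 ± 0.20) was lost without PT replicate 2 (0.40, adjusted p = 0.154) and was 1.36 without PT replicate 1. The fall with CpG before LPS (-0.59, 0.0424) was lost without each of the 4 libraries compared. A region 3.4 kb from the far end, named after its values were seen (chr18:61127508-61128009), likewise fell with polyI:C before TNF (-0.91 ± 0.18, 3.65e-04).

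A thinly covered Csf1r region (chr18:61122535-61123036) read 2.99 and 2.64 in MM, 1.42 and 0.94 in MC, 1.33 and 1.79 in ML, 1.95 and 1.09 in MP and 2.16 and 2.21 in MT. All singly stimulated libraries lay below MM. It fell with CpG (-1.64 ± 0.31, adjusted p = 8.56e-05, limma). Falls with LPS (-1.26 ± 0.31, 2.56e-03) and polyI:C (-1.30 ± 0.38, 0.0103) were lost without ML replicate 1, and without MM replicate 1 or MP replicate 2. It read 3.05 and 2.99 in CT and 2.21 and 1.60 in PT, a difference of 1.12 ± 0.31 that was lost without PT replicate 2 (0.81, adjusted p = 0.131). With LPS, the Csf1r gene end and this region moved in opposite directions.

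**Figure D4:**
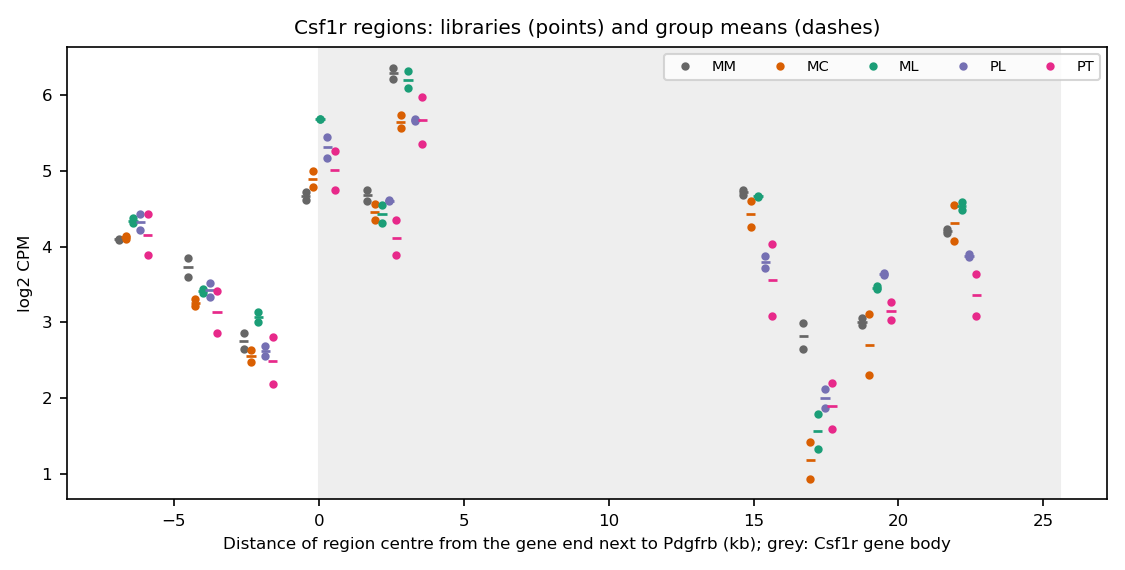
Log2 CPM (vertical axis) of the 2 libraries (points) and the mean (dashes) of 5 groups at the 10 Csf1r regions, by distance in kb from the gene end next to Pdgfrb, with the gene body in grey and groups set slightly side by side. ML is highest at the gene end, PL and PT lie below MM and ML at the region nearest the middle of the gene and at the one farthest from Pdgfrb, and MM is highest at the thinly covered region between them.

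The GM-CSF receptor alpha chain gene, Csf2ra, was accessible in all groups and was not called at any of its 6 regions with a single stimulus. The region 1.1 kb past the start (chr19:61227091-61227592), named after its values were seen, had a mean of 6.24 log2 CPM and group means within 0.21, a range in the 0.47th percentile of all regions. The start region itself (chr19:61228199-61228700), which holds the whole promoter printed above, lay between 4.16 and 5.06 in all libraries and was called in no comparison. Calls appeared in groups given 2 stimuli, and whether they reflect the first stimulus alone cannot be told. The region 1.7 kb past the start (chr19:61226452-61226953) read 3.47 and 3.91 in ML, 4.40 and 4.47 in PL, 3.48 and 3.71 in MT and 4.32 and 4.64 in PT. The polyI:C-primed libraries lay above their controls. It rose with polyI:C before TNF by 0.89 ± 0.19 (adjusted p = 7.59e-04, limma), and before LPS by 0.75 ± 0.19 (4.35e-03), a call lost without ML replicate 1 (0.53, 0.142). CpG before LPS gave 0.59 (0.0313), lost without ML replicate 1 or either CL library and with quantile or median scaling.

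The Csf2ra region 37.1 kb before the start (chr19:61265290-61265791) read 5.00 and 4.98 in MT, 5.22 and 5.13 in CT and 5.64 and 5.73 in PT. Both PT libraries lay above those of CT and MT. It rose with polyI:C before TNF by 0.69 ± 0.14 (adjusted p = 2.75e-04, limma), and CT was lower than PT (-0.51 ± 0.14, 4.71e-03), a call lost without CT replicate 2 (0.0628). The 2 Csf2ra regions were the only ones of the 39 that rose with polyI:C before TNF, where 11 others fell. PT replicate 2, low at most of the 39 regions, was the higher of the PT pair at both. A region 2.3 kb before the start (chr19:61230468-61230969) read 1.56 and 1.39 in MT and 2.83 and 2.23 in CT. Its rise of 1.05 ± 0.30 with CpG before TNF (0.0132) was lost without MT replicate 2 or CT replicate 1 (highest adjusted p 0.200).

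The beta chain genes Csf2rb and Csf2rb2 lie side by side and are near-identical in sequence. How reads that map to both were handled is not given in the sources used here, so their values may be mixed and are uncertain as separate measurements. Each gene held an inner region that opened with every stimulus. Inside Csf2rb (chr15:78334340-78334841) the values were 1.62 and 1.78 in MM, from 14 and 9 reads, 2.53 and 2.90 in MC, 4.00 and 3.93 in ML, 3.73 and 3.34 in MP and 3.62 and 3.51 in MT. Among MM and the single stimuli, MM was lowest, MC intermediate and the others higher, with no overlap between these 3 levels. The region rose by 2.27 ± 0.24 with LPS (adjusted p = 6.29e-09, limma), 1.87 ± 0.24 with TNF (1.25e-06) and 1.84 ± 0.30 with polyI:C (1.44e-05). The rise with CpG of 1.02 ± 0.24 (1.62e-03) was lost without MC replicate 2 (0.0514) and with quantile normalization (0.46, 0.198). CpG stood below LPS (-1.25 ± 0.24, 1.73e-03), a call lost without MC replicate 1 (0.0837).

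Inside Csf2rb2 (chr15:78298586-78299087) the values were 1.84 and 1.78 in MM, 2.48 and 2.87 in MC, 4.10 and 3.77 in ML, 3.69 and 3.85 in MP and 3.11 and 3.41 in MT. Among MM and the single stimuli, MM was again lowest and MC next, with no overlap with the other single stimuli. The region rose by 2.12 ± 0.27 with LPS (adjusted p = 2.67e-07, limma), 1.96 ± 0.34 with polyI:C (3.21e-05) and 1.45 ± 0.27 with TNF (4.13e-04). The rise with CpG of 0.86 ± 0.27 (0.0178) was lost without either MM library or MC replicate 2, and with quantile normalization (0.35, 0.411). The inner regions of the pair lie 35.754 kb apart, and their group means correlated at r = 0.93 over 9 groups.

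With 2 stimuli these inner regions lay above MM and no higher than ML. Inside Csf2rb the libraries read 3.53 and 3.77 in CL, 3.21 and 3.30 in PL, 3.05 and 3.52 in CT and 3.41 and 2.59 in PT. Only PL was called against its control (-0.71 ± 0.24, adjusted p = 0.0336, limma), a call lost without each of the 4 libraries. Inside Csf2rb2 they read 3.40 and 3.17 in CL, 3.34 and 3.59 in PL, 3.09 and 3.60 in CT and 3.14 and 1.97 in PT. CT stood 0.79 above PT (0.0266) with overlapping libraries, and the call was lost without CT replicate 2 or PT replicate 2 (0.21 without the latter, 1.37 without PT replicate 1).

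Unlike their inner regions, the gene ends of the beta chain pair were not called with any single stimulus against medium. The Csf2rb2 start region (chr15:78305449-78305950) read 3.52 and 3.65 in ML, 2.74 and 2.94 in PL, 3.32 and 3.74 in MT, 3.28 and 3.36 in CT and 2.68 and 1.86 in PT. The region averaged 3.26 in MM and 2.85 in MP, a difference that was not called, and the MP libraries overlapped those of PL. The polyI:C-primed libraries lay below those of ML, MT and CT. It fell with polyI:C before TNF (-1.26 ± 0.25, adjusted p = 2.56e-04, limma), and this was -0.85 and still called without PT replicate 2. The fall before LPS (-0.74, 0.0267) was lost without each of the 4 libraries, and the gap between CT and PT (1.05) without PT replicate 2 (0.64, 0.0955). The Csf2rb gene end (chr15:78325609-78326110) read 4.22 and 4.47 in ML against 3.56 and 3.77 in CL and 3.65 and 3.88 in PL. Its falls with CpG and polyI:C before LPS (-0.68 and -0.58) were lost without each of the 4 libraries. Its PT values of 3.81 and 2.97 gave calls against MT (-0.59) and CT (0.57) that were lost without PT replicate 2 (-0.17 and 0.16), without either MT library in the first case and without CT replicate 2 in the second, and that were -1.01 and 0.99 without PT replicate 1. A region 4.7 kb outside Csf2rb (chr15:78355487-78355988) read 3.72 and 3.48 in CT and 2.73 and 2.27 in PT, a called difference of 1.10 ± 0.22 (3.76e-04). Its rise with CpG before TNF (0.63, 0.0490) was lost without each of the 4 libraries.

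The change with the smallest adjusted p at these genes lay 20.5 kb before the Csf3r start (chr4:126003936-126004437). The values were 3.25 and 3.08 in MM, 5.46 and 5.39 in MC, 4.50 and 4.59 in ML, 3.86 and 4.18 in MP and 3.58 and 3.79 in MT. The single stimuli fell into a sequence in which CpG was highest, LPS next and polyI:C and TNF above MM, with no overlap between neighbours. The region rose by 2.26 ± 0.16 with CpG (adjusted p = 3.23e-13, limma), 1.38 ± 0.16 with LPS (3.74e-08) and 0.85 ± 0.20 with polyI:C (1.42e-03). The rise with TNF (0.52 ± 0.16, 0.0445) was lost without each of the MM and MT libraries. CpG exceeded LPS by 0.87 ± 0.16 (9.80e-04), polyI:C by 1.40 ± 0.20 (5.69e-06) and TNF by 1.73 ± 0.16 (6.61e-10), and all 3 calls were kept without each library.

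This Csf3r region was also high in both groups given CpG first. It read 5.41 and 5.61 in CL, 4.72 and 5.06 in PL, 5.25 and 5.44 in CT and 3.79 and 3.66 in PT. The CL and CT libraries overlapped those of MC, and the PT libraries those of MT. It rose with CpG before TNF by 1.66 ± 0.16 (adjusted p = 2.01e-09, limma) and before LPS by 0.96 ± 0.16 (8.99e-05), while polyI:C gave 0.35 before LPS and 0.04 before TNF, neither called. CT exceeded PT by 1.62 ± 0.16 (5.82e-09). CL exceeded PL by 0.62 (0.0140), a call lost without CL replicate 2 or PL replicate 1 (highest adjusted p 0.215).

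A second upstream Csf3r region, 33.7 kb before the start (chr4:125990677-125991178) and named after its values were seen, rose by 1.29 ± 0.26 with CpG (adjusted p = 2.56e-04, limma). It was also called higher with LPS (0.92 ± 0.26, 9.47e-03), a call lost without MM replicate 2 or ML replicate 1 (highest adjusted p 0.191) and with quantile normalization, and with CpG before TNF (1.00 ± 0.26, 7.31e-03), lost without MT replicate 1 or CT replicate 2 (highest adjusted p 0.107). At the Csf3r start (chr4:126024401-126024902), which holds the promoter printed above, the values were 3.14 and 3.08 in MM and 3.65 and 3.81 in MC. It rose with CpG by 0.62 ± 0.20 (0.0178), a call lost without either MM library or MC replicate 2, and was called in no other comparison.

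By group means over the 9 groups, the regions most like the Csf3r region at 20.5 kb, among 16914 searched, were inside Lyn (r = 0.994), a Src-family kinase, Dock4 (0.994) and Foxn3 (0.991). The farthest Csf2 region was most like regions at Plekha4 (0.981), Cux1 (0.972) and Arhgap23 (0.970). The inner Csf2rb region was most like regions at Tmed10 (0.969), Fos (0.966) and Cdk15 (0.962), and the inner Csf2rb2 region like Usp3 (0.975), Camta2 (0.966) and Cdk15 (0.965), the same Cdk15 region in both lists. The farthest Csf1 region was most like Siah3 (0.982), Dcaf12 (0.975) and Sgsh (0.973). These are the highest of many correlations and are descriptions only.

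In the comparisons of primed cells with the single second stimulus, more regions were called lower than higher for both first stimuli before LPS and for polyI:C before TNF, and more higher than lower for CpG before TNF. For CpG before LPS this order was not kept without a variance trend (3 higher and 2 lower) or without either ML library. CpG before LPS called 9 of 39 regions, 3 higher and 6 lower, against 15.7% of all regions (9.95% higher and 5.76% lower), and polyI:C before LPS called 9, 2 higher and 7 lower, against 22.9% (13.5% and 9.36%). CpG before TNF called 10, 8 higher and 2 lower, against 16.3% (10.6% and 5.65%). PolyI:C before TNF called 13, 2 higher and 11 lower, against 27.7% (15.0% and 12.7%). Without PT replicate 2 it called 8, 3 higher and 5 lower, of which 7 were shared with the 13. The median difference with polyI:C before TNF was -0.28 over the 39 regions and 0.00 over all regions. The calls with CpG or polyI:C before LPS fell to between 3 and 5, and with CpG before TNF to 4 or 5, whichever library was left out.

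CpG and polyI:C as first stimulus were also compared with each other under the same second stimulus. CT against PT called 15 of 39 regions (38.5%), 14 higher and 1 lower, against 32.0% of all regions (17.3% higher and 14.6% lower). The share in either direction was near that of all regions. The 15 lay at all 7 genes. Without PT replicate 2 the count was 7, 5 higher and 2 lower, 6 of them among the 15. CL against PL called 2, 1 higher and 1 lower, both at Csf3r and both lost without at least 2 of the 4 libraries, against 8.47% (4.24% higher and 4.23% lower). Among the single stimuli, MC against ML called 7 of 39 against 5.66%, MC against MP 5 against 12.7%, MC against MT 12 against 13.8%, ML against MP 2 against 11.4%, ML against MT 3 against 4.34% and MP against MT 2 against 12.1%. The difference of a priming effect under LPS from that under TNF was called at 0 of 39 regions for CpG, against 0.245% of all regions, and at 0 for polyI:C, against 0% (limma). At an unadjusted p under 0.05 there were 6 and 3, the lowest adjusted p were 0.225 and 0.802, and voom on recovered reads also called 0 in both.

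Genes of the signalling pathways around these receptors were taken as a list of 49 genes. It held kinases, STAT and lineage transcription factors, feedback inhibitors, adaptors, cytokines, cytokine receptors and others such as Adam17, Myc and Mcl1. The cytokines included Il1b and Tnf. Of the 49 genes, 48 had 353 regions. Of these regions 88 rose and 20 fell with CpG, 96 rose and 15 fell with LPS, 78 rose and 18 fell with polyI:C and 30 rose and 0 fell with TNF, against 17.2% and 8.79%, 15.0% and 9.55%, 14.3% and 8.28%, and 5.79% and 0.573% of all regions. A region near Socs3, the feedback inhibitor of the G-CSF receptor, rose by 3.20 ± 0.19 with CpG, 3.25 ± 0.19 with LPS, and 2.71 ± 0.24 with polyI:C, and was also called higher with TNF. Its libraries read 1.77 and 2.02 in MM, 5.04 and 5.14 in MC, 5.27 and 5.03 in ML, 4.63 and 4.58 in MP and 4.24 and 3.97 in MT, with no overlap with MM. The region inside Lyn rose by 4.34 ± 0.22 with CpG, from 0.88 and 0.31 in MM to 5.00 and 4.88 in MC.

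With priming, 59 of the 353 pathway regions rose and 8 fell with CpG before TNF, and 35 rose and 72 fell with polyI:C before TNF, against 10.6% and 5.65%, and 15.0% and 12.7%, of all regions. Before LPS, 25 rose and 21 fell with CpG and 37 rose and 49 fell with polyI:C, against 9.95% and 5.76%, and 13.5% and 9.36%. CT exceeded PT at 125 and was lower at 15, against 17.3% and 14.6%. The median over the list was -0.19 with polyI:C before TNF and 0.35 for CT against PT, where all regions had 0.00 and 0.02. Regions within one gene share libraries and neighbourhood, and these counts carry no test.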

How the data were processed

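ATAC-seq was measured in 18 libraries, 2 for each of 9 treatments. Per the submitters' processing notes, the tools included MACS3 3.0.0b1, featureCounts, Bowtie2 2.2.5, Picard and SAMtools 1.9, on mm10 (GRCm38). Their settings, the merging of regions and the handling of reads that map to several places are not given in the sources used here. The authors deposited log2 CPM per region and library. The deposited values return whole reads within 0.01 for 100% of values when a mean prior of 3 reads is assumed. This prior shrinks log2 differences at thinly covered regions. The 53796 regions of 501 bases were used without a filter.

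Regions were assigned to the nearest of 21900 protein-coding genes within 50 kb (RefSeq, GRCm38.p6, without strand). Start sites came from RefSeq promoter windows, which for Csf1r, Csf2rb and Csf3 were not used here. A model with 1 mean per group was fitted to the log2 values of all 9 groups in limma 3.58.1 (R 4.3.3), with a variance trend, 8 residual and 26.6 prior degrees of freedom and the mean of the MP libraries as 1 sample. P-values were adjusted by Benjamini and Hochberg over all regions. The 6 contrasts between single stimuli were added after seeing the data. The median SE of a difference was 0.208. On simulated data for CpG against medium, the fit called 4% of regions changed by 0.5 on the log2 scale, 64% of those changed by 1, 96% of those changed by 2 and 100% of those changed by 3, with 12 calls among unchanged regions. For CpG before LPS against LPS alone it called 0% and 44% of regions changed by 0.5 and 1, and for polyI:C against medium 2% and 32%. The simulation changed 200 regions, at a dispersion of 0.01. All groups, LPS alone included, were drawn from the MM means with this dispersion. Differences in level and spread between the groups of the data were thus left out. Far more regions were called in most comparisons of the data, which makes the adjusted threshold less strict, so these rates need not hold there.

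Named for each gene were the region at its start or end, the called region with the widest difference in each of the 12 planned contrasts and the region with the widest range of group means. Likeness was taken to regions over 1 Mb away or on another chromosome, 1 per gene. The genes, the lists, the motifs and the rules were chosen with earlier results of these data known. Alternatives were other scalings, a filter at the 25th percentile of level, a pseudocount of 1 CPM, other variance models, fits of the compared groups only, the MP libraries as 2 samples, a replicate block, voom on recovered reads, assignment within 10 kb and each library left out.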

Additional observations from a re-analysis of the deposited data

How the results depend on the processing

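With 2 libraries a group, changes of 0.5 on the log2 scale were rarely called in simulated data (0% to 4% over 3 comparisons). Only 200 regions were changed there, far fewer than were called in most comparisons of the data, so these rates need not hold for the data. Of 97 called results at the named regions, 41 kept their direction and call under every alternative tried, 56 lost the call under at least 1 and 0 reversed. Counting regions within 10 kb of a gene in place of 50 kb left fewer regions (26) and fewer calls: 6 for CpG, 5 for LPS and 5 for polyI:C alone, 5 for CpG before LPS, 3 for CpG before TNF, 8 for polyI:C before TNF, 1 for CL against PL and 8 for CT against PT. PolyI:C alone called 13 with the MP libraries as 2 samples. CpG before LPS called 5 without a variance trend, and CpG before TNF called 2 with the 25th percentile filter, which leaves fewer regions. Fits of the compared groups only gave 14 for CpG before LPS, 15 for polyI:C before LPS, 8 for polyI:C before TNF and 5 for CL against PL, and voom gave 5 for CL against PL. The cause of these differences was not tested.

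Leaving out each library gave 9 to 12 calls for CpG, 8 to 10 for LPS, 5 to 9 for polyI:C and 3 to 3 for TNF alone, 3 to 4 for CpG and 3 to 5 for polyI:C before LPS, 4 to 5 for CpG and 8 to 18 for polyI:C before TNF, 0 to 2 for CL against PL, 7 to 21 for CT against PT and 0 to 0 for both differences of priming effects. The count for polyI:C alone was 5 without MM replicate 1, and that for polyI:C before TNF 8 without MT replicate 1 or PT replicate 2. CL against PL called 0 without CL replicate 2 or PL replicate 1 and 1 without CL replicate 1. No scaling moved the median of all regions by over 0.1. Libraries shifted to 1 median gave 42.9% of all calls higher for CpG before LPS in place of 63.3%, 48.3% for polyI:C before LPS in place of 59.1% and 54.7% for CpG before TNF in place of 65.3%, and quantile normalization 52.5% for CpG before LPS.

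Replicate numbers showed no pairing common to all groups: the replicate differences of 2 groups correlated between -0.358 and 0.242 (median 0.00 over 36 pairs of groups). Whether the libraries of some groups were paired or shared a batch was not tested. With the replicate block, CpG alone called 13 and polyI:C before TNF 13 of the 39 regions, as without it, and 1 call at a named region was lost, that of LPS against TNF alone at the Csf1 start (adjusted p = 0.0542, limma).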
